A study of Mus musculus with 90 samples.

Results

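The liver cell sends its products into bile across its canalicular membrane and back to blood across its basolateral membrane with ATP-driven pumps of the ABC family. The mRNAs of 10 such pumps were followed here: Abcb11, Abcb4, Abcc2, Abcg2, Abcg5, Abcg8 and Abcb1a, which serve the bile side, and Abcc3, Abcc4 and Abcc6, which serve the blood side. They were taken by symbol from the 18223 genes of the deposited tables, and all 10 were present and passed the filter on low counts. The livers came from 90 female Diversity Outbred (J:DO) mice, an outbred stock bred from several inbred founder strains, so that each animal has a genome of its own. Mice were 6 to 20 weeks of age. The Vehicle group held 41 animals dosed by mouth with sterile distilled water, and the Zileuton group 49 animals dosed by mouth with zileuton at 300 mg per kg, a drug that inhibits 5-lipoxygenase, in both cases daily for 7 days. The labels name no engineered allele in either group, and 1 library was read per animal, so that replicates are separate animals. The comparison asks how repeated dosing with a drug studied for liver toxicity changed the mRNAs of these exporters.

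As background, Abcb11 is the bile salt export pump and drives bile salt-dependent bile flow. Abcb4 flips phosphatidylcholine into the outer leaflet for bile, Abcg5 and Abcg8 form an obligate heterodimer that secretes cholesterol and plant sterols, and Abcc2 secretes conjugated bilirubin and other glutathione and glucuronide conjugates. Abcg2 and Abcb1a are multidrug efflux pumps. Abcc3 and Abcc4 move conjugates and bile acids from the hepatocyte back to blood and are known as an overflow route, and Abcc6 is known for releasing ATP at the basolateral membrane, from which the mineralization inhibitor pyrophosphate is formed. Several nuclear receptors are known to act on these genes, among them FXR on Abcb11, LXR on Abcg5 and Abcg8, CAR and PXR on Abcc2 and Abcc3, and the factor NRF2 on Abcc3 and Abcc4.

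The libraries held 12664579 to 41360187 estimated counts each (median 25535799), at overlapping depths in the 2 groups. Hepatocyte markers were high in every library, with Alb, the gene of serum albumin, at 61131 to 141170 CPM (counts per 1000000 of the library) in vehicle livers and at 49048 to 137670 CPM in zileuton livers. Summed cholangiocyte markers, which mark the bile duct cells, were low beside them, with a median of 55.7 CPM (34.7 to 80.9) in vehicle livers and 44.4 CPM (28.7 to 91.4) in zileuton livers; 2 of their 7 tested genes were called lower and 0 higher. Of 10 hepatocyte markers 5 were called lower and 1 higher, of 7 stellate cell markers 3 lower and 0 higher, of 7 sinusoidal endothelial markers 1 lower and 0 higher, of 5 lymphocyte markers 1 lower and 0 higher, and of 7 Kupffer cell and 5 red cell markers 0 in either direction. Over all 13248 genes tested, 14.4% were called higher and 14.8% lower, so that 1 of 7 is near the background. The part of these cells in the pump results was not tested. Fewer cells of a type and less RNA per cell cannot be told apart in bulk tissue. Vehicle replicate 37 stood apart: its summed CPM over 17 genes known as targets of CAR and PXR was 40845, against a vehicle median of 11662 and a zileuton median of 24054, and its CAR and PXR score exceeded that of 48 of the 49 zileuton animals. Its drug-response genes thus stand at the level of the other label, and whether its label or dosing is right was not tested. The fold changes of Abcc2, Abcc3 and Abcc4 are therefore given with and without it. So are the coefficient of variation and black coat difference of Abcc4 and the relation of Abcc3 with Abcc4. Other values, among them the spread test and the relations with list scores, include this animal unless stated otherwise. Skeletal muscle genes, at a summed median under 0.1 CPM in both groups, reached 2354 CPM in vehicle replicate 8 and 1621 CPM in 1 zileuton library. The groups also differed in 2 measures that move with the treatment label. Animal numbers fall into 8 runs of 50, and within a run the vehicle animals held positions 13 to 20 and the zileuton animals positions 25 to 50, without overlap. A score of circadian clock genes (genes of the Per and Dbp phase minus genes of the Bmal1 phase, on scaled log2 CPM) was −1.32 ± 1.27 (SD, n = 41) in vehicle livers and 1.11 ± 1.17 (SD, n = 49) in zileuton livers, and 11 of 11 genes of the first kind were called higher and 5 of 5 of the second lower. Position and treatment cannot be told apart in this design, and the part of the clock phase in the results below was not tested apart from the adjusted values given.

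The promoters of 4 pumps are shown, because Abcg5 and Abcg8 are read away from each other out of one stretch of DNA and because Abcc4 and Abcb11 were the pumps with the largest called rise and the largest called fall. Each window holds 250 bases before the RefSeq start and 50 after, from build GRCm38.p6; 8 of the 10 pumps matched a window there. The Abcg5 window is chr17:84682962-84683261 on the minus strand and the Abcg8 window chr17:84682871-84683170 on the plus strand. The Abcc4 window is chr14:118706170-118706469 and the Abcb11 window chr2:69342567-69342866, both on the minus strand. All are written 5′ to 3′ on the gene's strand, with matches to the motifs named next in capitals.
Abcg5: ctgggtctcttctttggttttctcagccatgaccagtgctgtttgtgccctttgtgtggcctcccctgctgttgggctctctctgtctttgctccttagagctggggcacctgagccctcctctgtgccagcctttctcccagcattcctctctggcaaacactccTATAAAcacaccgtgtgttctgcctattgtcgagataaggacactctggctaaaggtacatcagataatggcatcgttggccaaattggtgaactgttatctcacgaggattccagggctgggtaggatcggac
Abcg8: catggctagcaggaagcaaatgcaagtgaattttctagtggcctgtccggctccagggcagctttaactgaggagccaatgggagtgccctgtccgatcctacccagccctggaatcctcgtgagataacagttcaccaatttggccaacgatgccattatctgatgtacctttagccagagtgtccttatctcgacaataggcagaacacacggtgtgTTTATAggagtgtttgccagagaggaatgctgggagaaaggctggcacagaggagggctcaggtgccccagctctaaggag
Abcc4: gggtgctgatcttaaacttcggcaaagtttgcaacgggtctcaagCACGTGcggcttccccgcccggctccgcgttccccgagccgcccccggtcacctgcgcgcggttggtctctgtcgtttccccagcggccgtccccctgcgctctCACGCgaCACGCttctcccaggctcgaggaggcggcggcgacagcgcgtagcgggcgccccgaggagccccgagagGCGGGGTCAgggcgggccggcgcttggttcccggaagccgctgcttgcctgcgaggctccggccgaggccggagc
Abcb11: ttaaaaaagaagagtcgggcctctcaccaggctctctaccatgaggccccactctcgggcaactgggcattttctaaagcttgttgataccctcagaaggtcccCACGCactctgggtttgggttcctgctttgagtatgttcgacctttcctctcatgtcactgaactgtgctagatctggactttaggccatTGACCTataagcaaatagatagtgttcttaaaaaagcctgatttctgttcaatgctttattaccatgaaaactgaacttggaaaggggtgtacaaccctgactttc
The motifs searched on both strands were the nuclear receptor half-site AGGTCA, the core of the antioxidant response element TGACNNNGC, the E-box CACGTG, the xenobiotic response core GCGTG and the TATA box TATAAA, and no matches overlapped one another in these windows. Of 32851 mouse windows of the same length, 16.3% held the half-site, 12.4% the antioxidant core, 7.15% the E-box, 32.4% the xenobiotic core and 13.6% the TATA box. The Abcg5 and Abcg8 windows share 209 bases, and their start sites lie 110 bases apart; RefSeq gives Abcg8 another start 6709 bases from the Abcg5 start, inside the Abcg5 gene. The one match in either is the same TATA box in the shared stretch, which lies 31 to 26 bases before the Abcg8 start and 84 to 79 bases before the Abcg5 start. The letters TATAAA are on the strand of Abcg5, and for Abcg8 the match is on the reverse strand. The Abcc4 window held 1 antioxidant core, GCGGGGTCA on the reverse strand, 25 to 17 bases before the start, with 1 E-box and 2 xenobiotic cores. RefSeq gives Abcc4 another window, chr14:118676882-118677181 on the minus strand, which is not shown. Its 1 match is an antioxidant core on the strand of the gene, 23 to 15 bases before that start. The Abcb11 window held 1 half-site, on the reverse strand 56 to 51 bases before the start, and 1 xenobiotic core. A match describes letters and is not a site of binding.

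In GENCODE M21 on build GRCm38, the bile-side genes lie on chromosome 2 at 69238282 to 69342616 (Abcb11), chromosome 5 at 8893717 to 8959231 (Abcb4) and 8660077 to 8748575 (Abcb1a), chromosome 19 at 43782192 to 43840740 (Abcc2), chromosome 6 at 58584523 to 58695676 (Abcg2) and chromosome 17 at 84658234 to 84683011 (Abcg5) and 84676302 to 84700333 (Abcg8). The blood-side genes lie on chromosome 11 at 94343295 to 94392997 (Abcc3), chromosome 14 at 118482692 to 118706219 (Abcc4) and chromosome 7 at 45967555 to 46030302 (Abcc6). Divided by the length of all exons of the gene, the pump mRNAs spanned about 2 orders of magnitude. In vehicle livers, Abcb11 had the highest level, 145.7 ± 27.57 CPM per kilobase (SD, n = 41), followed by Abcc3 at 58.42 ± 20.7. A middle group held Abcc6 at 36.35 ± 6.823, Abcg5 at 29.73 ± 10.17, Abcg8 at 24.86 ± 9.534, Abcc2 at 24.27 ± 6.15 and Abcb4 at 23.62 ± 4.661 CPM per kilobase. The lowest were Abcg2 at 4.116 ± 0.8797, Abcb1a at 2.301 ± 0.8215 and Abcc4 at 1.4 ± 1.398. Of the neighbours in this order, the ranges over animals did not overlap between Abcb4 and Abcg2 and overlapped in the other 8 pairs. Abcb11 exceeded Abcc3 in 39 of 41 vehicle animals, whereas Abcg8 exceeded Abcc2 in 22 and Abcc2 exceeded Abcb4 in 21, so the order within the middle group was not set beyond its spread.

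**Figure D1:**
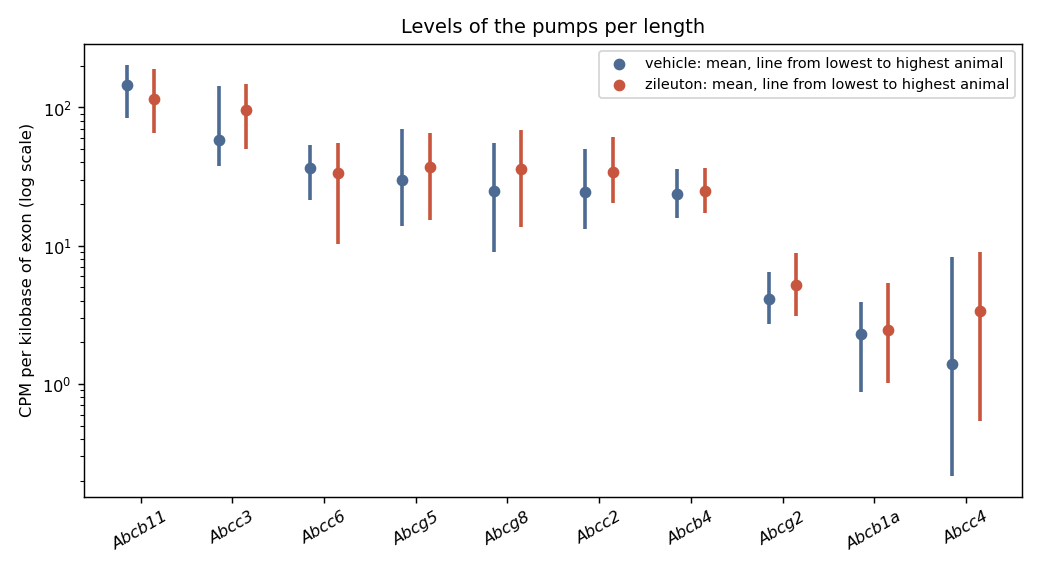
Mean level of each pump in CPM per kilobase of exon (log axis) in 41 vehicle and 49 zileuton livers; points are means and lines run from the lowest to the highest animal. Abcb11 and Abcc3 were highest in both groups, and Abcg2, Abcb1a and Abcc4 lie below the other 7 pumps.

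In zileuton livers Abcb11 stood at 114.5 ± 25.46 CPM per kilobase (SD, n = 49) and Abcc3 at 95.99 ± 21.72, and Abcb11 was above Abcc3 in 34 of 49 animals. Abcc6 was the third pump in vehicle livers and the sixth in zileuton livers, at 33.34 ± 7.662 CPM per kilobase. Abcc4, at 3.37 ± 1.897, was above Abcb1a in 35 of 49 zileuton animals, while Abcb1a was above Abcc4 in 36 of 41 vehicle animals. The ratio of Abcc3 to Abcb11 within an animal, taken on CPM, ran from 0.219 to 1.39 with a median of 0.399 in vehicle livers, and from 0.363 to 2.07 with a median of 0.978 in zileuton livers. The corresponding ratio of Abcc2 to Abcb11 had medians of 0.254 and 0.455, and that of Abcc4 to Abcb11 medians of 0.00838 and 0.0326. These ratios overlapped between the groups and were not tested.

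Under zileuton 6 pumps rose and 1 fell. Abcc2, Abcg2, Abcg5 and Abcg8 of the bile side and Abcc3 and Abcc4 of the blood side were higher, Abcb11 was lower, and Abcb4, Abcb1a and Abcc6 did not pass an adjusted p of 0.05. Calls are from the edgeR quasi-likelihood test over 13248 genes with Benjamini-Hochberg adjustment. The background was wide, since 14.4% of all genes tested were called higher and 14.8% lower, 29.3% in all. The median log2 fold change of the 10 pumps was 0.34, against −0.01 over all genes tested. With the clock score or the position as a covariate, Abcc3 was the one pump called.

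Abcb11, the bile salt pump, ran from 434 to 1051.5 CPM in vehicle livers with a median of 737, and from 337 to 969 CPM in zileuton livers with a median of 579. The groups overlapped, but 41 of 49 zileuton animals lay below the vehicle median and 4 below the lowest vehicle animal. The log2 fold change was −0.35 ± 0.06 (SE, adjusted p = 8.28e-06), a level 1.27-fold lower. It was the one pump called lower.

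Abcc2, the conjugate pump of the canaliculus, ran from 113 to 424 CPM in vehicle livers with a median of 198, and from 172 to 519 CPM in zileuton livers with a median of 274. In 46 of 49 zileuton animals it was above the vehicle median. The log2 fold change was 0.50 ± 0.08 (SE, adjusted p = 1.83e-07), or 1.42-fold. Its highest vehicle animal was replicate 37, and the next reached 272 CPM. Without it the log2 fold change was 0.54.

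Both subunits of the sterol transporter rose. Abcg5 ran from 38 to 191 CPM (median 78) in vehicle livers and from 41.4 to 177 CPM (median 95.5) in zileuton livers, with 38 of 49 zileuton animals above the vehicle median. Abcg8 ran from 34.1 to 208 CPM (median 85.7) and from 51.3 to 257 CPM (median 126), with 45 of 49 above. The zileuton range lay inside the vehicle range for Abcg5 and reached beyond it for Abcg8. Log2 fold changes were 0.33 ± 0.09 (SE, adjusted p = 0.00278) for Abcg5 and 0.52 ± 0.10 (SE, adjusted p = 3.26e-05) for Abcg8. Whether these 2 differences differ from each other was not tested; within an animal, the ratio of Abcg8 to Abcg5 CPM had a median of 1.17 (0.731 to 1.6) in vehicle livers and 1.35 (0.802 to 1.86) in zileuton livers. Exons of these genes share 82 bases on opposite strands, and the strand setting of the counting is not given in the sources used here.

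Abcg2, the multidrug pump known as breast cancer resistance protein, ran from 22.1 to 52.4 CPM in vehicle livers (median 31.2) and from 25.2 to 71.7 CPM in zileuton livers (median 41.5). In 41 of 49 zileuton animals it was above the vehicle median, and in 10 above the highest vehicle animal. The log2 fold change was 0.34 ± 0.07 (SE, adjusted p = 5.70e-05).

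Abcb4, the phospholipid flippase, was at 149 to 335 CPM (median 219) in vehicle livers and 161 to 342 CPM (median 230) in zileuton livers. Its log2 fold change of 0.08 ± 0.06 (SE) had an adjusted p of 0.356 and a 95% interval from −0.04 to 0.19. Abcb1a, one of the 2 mouse genes for P-glycoprotein, was at 4.76 to 21.6 CPM (median 12.9) and 5.59 to 29.4 CPM (median 12.6), with a log2 fold change of 0.09 ± 0.11 (SE, adjusted p = 0.589) and a 95% interval from −0.13 to 0.30. Values of Abcb1a are uncertain, since 0% of its estimated counts were whole numbers, which shows that reads were divided between features, and its close copy Abcb1b was in the tables at a median of 3.79 CPM in vehicle and 2.66 CPM in zileuton livers. Of Abcb4 1.11% of the estimated counts were whole, of Abcg2 15.6%, of Abcg8 22.2% and of Abcc4 66.7%. For Abcb11, Abcc2, Abcc3, Abcc6 and Abcg5 the share was 100%. The part of divided reads in the calls of Abcg2, Abcg8 and Abcc4 was not tested.

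**Figure D2:**
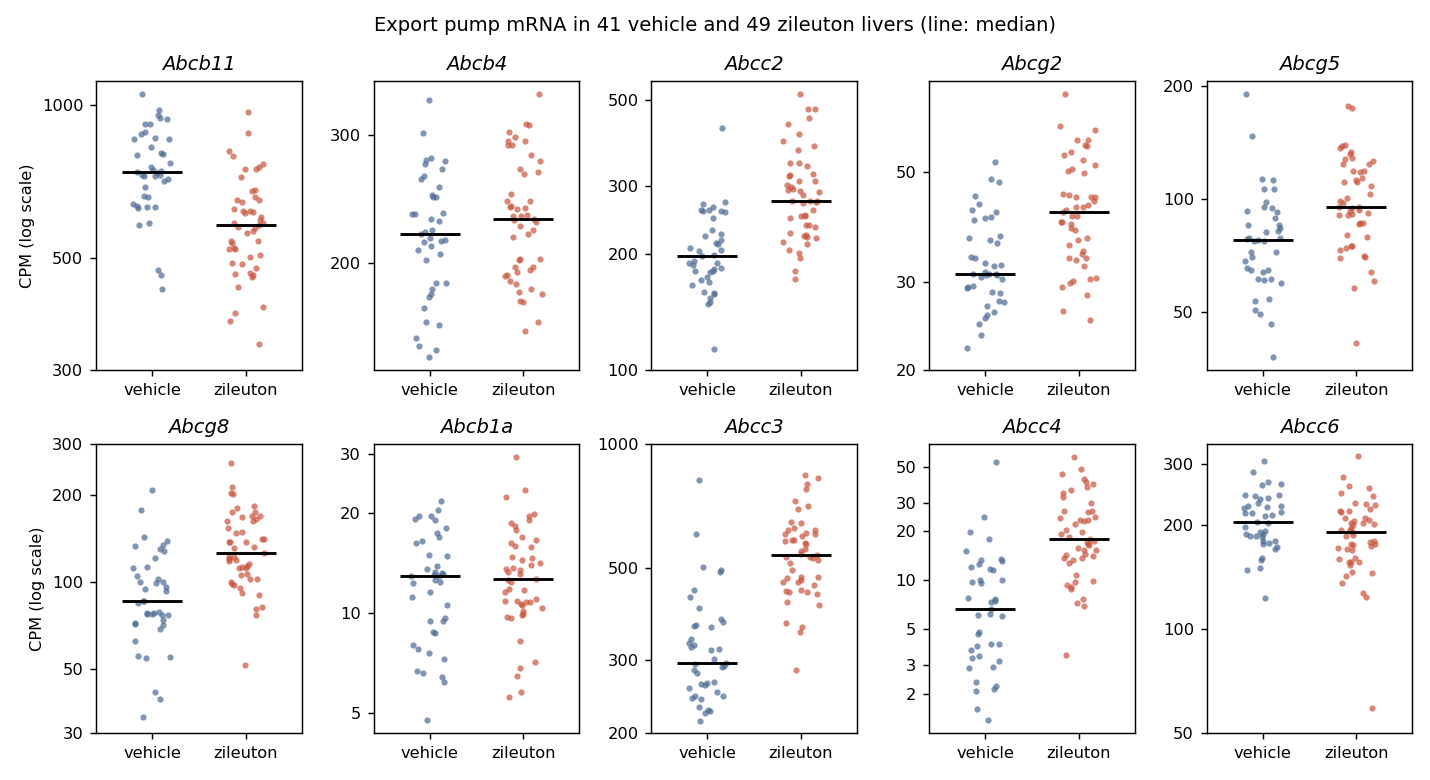
CPM of each pump (log axis) in each of 41 vehicle and 49 zileuton animals, 1 point per animal, with a line at the group median. The groups overlap for every pump; Abcc3 and Abcc4 show the widest shift, with 48 of 49 zileuton animals above the vehicle median of each.

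On the blood side, Abcc3 ran from 214 to 817 CPM in vehicle livers with a median of 294, and from 283 to 838.5 CPM in zileuton livers with a median of 539. In 48 of 49 zileuton animals it was above the vehicle median. The log2 fold change was 0.72 ± 0.08 (SE, adjusted p = 5.05e-11), or 1.64-fold. Vehicle replicate 37 was the highest vehicle animal and the next stood at 606 CPM. Without it the log2 fold change was 0.77.

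Abcc4 had the largest log2 fold change of the 10, 1.27 ± 0.21 (SE, adjusted p = 1.41e-06), or 2.42-fold. It ran from 1.38 to 53.4 CPM in vehicle livers (median 6.63) and from 3.46 to 57.6 CPM in zileuton livers (median 18), with 48 of 49 zileuton animals above the vehicle median. Its spread was also the widest: the coefficient of variation between animals was 99.9% in vehicle and 56.3% in zileuton livers, against 18.8% to 38.3% for the other 9 pumps in vehicle livers. The vehicle maximum was again replicate 37, followed by replicate 28 at 24.7 CPM. Without replicate 37 the log2 fold change was 1.46 and the vehicle coefficient of variation 69.8%.

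Abcc6 ran from 123 to 308 CPM in vehicle livers (median 205) and from 58.9 to 317 CPM in zileuton livers (median 191). The log2 fold change was −0.12 ± 0.07 (SE, adjusted p = 0.159) with a 95% interval from −0.26 to 0.01. Zileuton replicate 13 was the lowest of all animals at 58.9 CPM, and the next zileuton animal stood at 124 CPM.

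The 2 measures that move with treatment changed these calls. With the clock score as a covariate, 1 pump was called higher and 0 lower, and with position within the run as a covariate again 1 and 0; both times the pump was Abcc3, at a log2 fold change of 0.45 (adjusted p = 0.00845) and 0.66 (adjusted p = 0.0292). Over all genes the calls fell from 3878 to 384 and to 217. With the clock score, Abcb11 was at −0.17 (adjusted p = 0.316), Abcc2 at 0.30 (0.0888), Abcc4 at 0.52 (0.313), Abcg2 at 0.23 (0.169), Abcg8 at 0.10 (0.765) and Abcg5 at −0.03 (0.922). With position, Abcb11 was at −0.22 (adjusted p = 0.437), Abcc2 at 0.26 (0.434), Abcc4 at 1.03 (0.231), Abcg2 at 0.40 (0.144), Abcg5 at 0.29 (0.462) and Abcg8 at 0.29 (0.532). The groups held no common position, so that the last fit extrapolates. The clock score was taken from mRNAs of the same livers after dosing, and 48 of 49 zileuton animals lay above its vehicle median. A call lost in either fit does not show an absent difference. Abcg2 was at 0.40 with position and at 0.34 without a covariate, while the other pumps that lost the call had smaller differences with position. Within a group, none of 20 relations of a pump with position passed adjustment, and 0 had an unadjusted permutation p under 0.05. These relations cover positions 13 to 20 in vehicle and 25 to 50 in zileuton animals. They cannot show a difference between the 2 ranges.

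**Figure D3:**
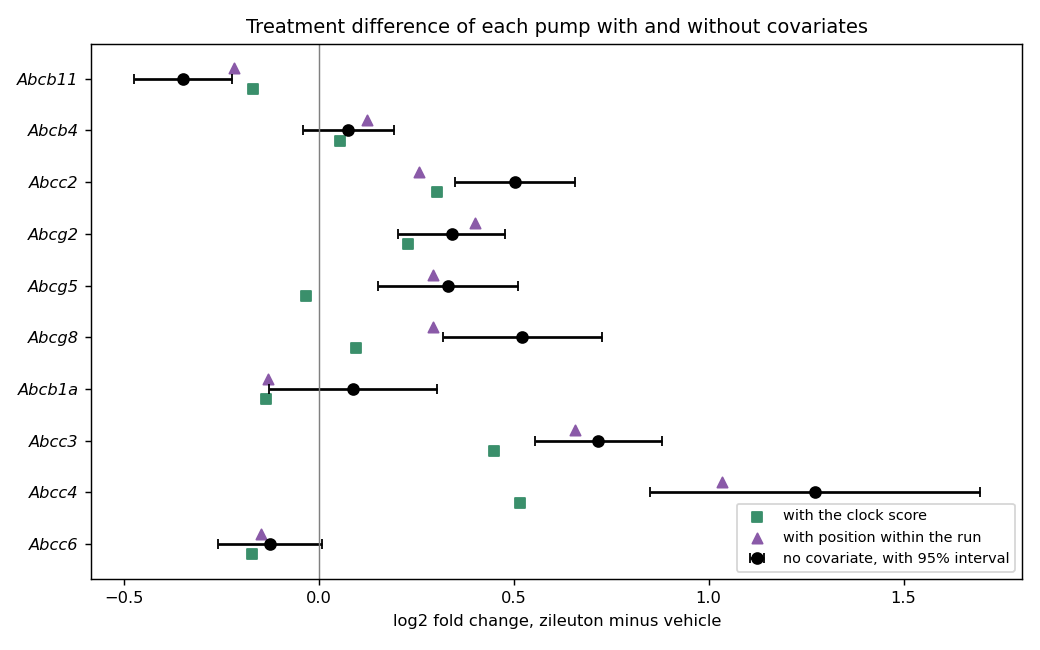
Log2 fold change (zileuton minus vehicle) of each pump without a covariate, with its 95% interval, and with the clock score or the position within the run as a covariate. With the clock score Abcg5 lies at −0.03 and Abcg8 at 0.10, and Abcc3, the one pump called in both fits, lies at 0.45 with the clock score and 0.66 with position.

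Within the 8 runs of animal numbers taken one by one, zileuton was higher than vehicle in 8 of 8 for Abcc2, Abcc3, Abcc4, Abcg2 and Abcg8 and in 7 of 8 for Abcg5, and lower in 8 of 8 for Abcb11. The within-run difference of mean log2 CPM ran from 0.255 to 0.958 for Abcc2, from 0.559 to 1.07 for Abcc3, from 1.03 to 2.38 for Abcc4 and from −0.913 to −0.11 for Abcb11. Abcb4 was higher in 4 runs and lower in 4, Abcb1a higher in 5, and Abcc6 lower in 7. Levels also differed between runs of the same group. Among runs with at least 4 zileuton animals, the zileuton median of Abcc4 ran from 11.4 CPM in run 3 (8 animals) to 35.3 CPM in run 8 (6 animals), and that of Abcg2 from 30.6 CPM in run 7 (4 animals) to 52.9 CPM in run 2 (7 animals). Run 5 held 2 zileuton animals, with medians of 37.2 CPM for Abcc4 and 58.3 CPM for Abcg2, and its within-run differences rest on those 2. What a run stands for is not given in the labels. Within each run the vehicle animals held positions 13 to 20 and the zileuton animals positions 25 to 50. The within-run differences therefore carry the same difference in position and cannot set treatment and position apart.

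**Figure D4:**
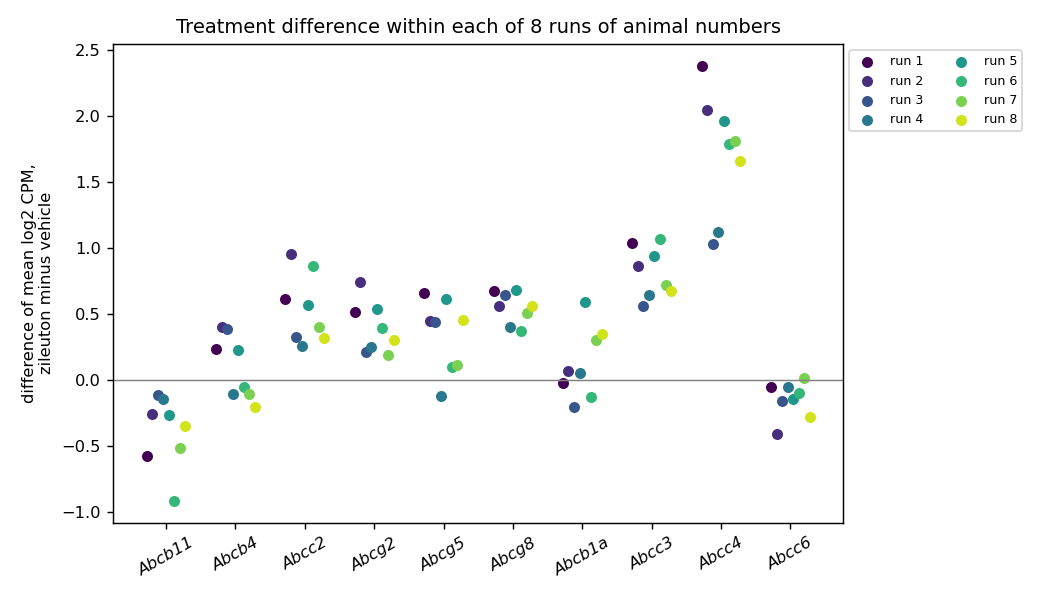
Difference of mean log2 CPM, zileuton minus vehicle, within each of the 8 runs of 50 animal numbers, 1 point per run and pump. All 8 points lie above 0 for Abcc2, Abcc3, Abcc4, Abcg2 and Abcg8 and below 0 for Abcb11, while the points of Abcb4 fall on both sides. In every run the groups also differ in position, which these points do not set apart from treatment.

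Neither the spread between animals nor coat colour gave a call among the pumps. In a limma test of absolute deviations from the group median, 0 of 10 pumps were called and 1 had an unadjusted p under 0.05, Abcc4 (adjusted p = 0.534), against 0.0337% of 11857 genes called. Its mean absolute deviation was 0.94 in vehicle livers, replicate 37 included, and 0.66 in zileuton livers on the log2 scale. In the edgeR fit with coat, 0 pumps were called for black against agouti (1 at an unadjusted p under 0.05, Abcc4 at a log2 difference of 0.70 ± 0.29 SE, and at 0.25 ± 0.29 SE without replicate 37, which left 0 at that p; background 0.0453%) and 0 for white against agouti (2 at an unadjusted p under 0.05, Abcc2 and Abcg8; background 0.00755%). The lowest adjusted p was 0.398, for Abcc2 in white against agouti, with a log2 difference of −0.33 ± 0.10 (SE), and Abcg8 was at −0.29 ± 0.14 (SE). The interaction of treatment with coat called 0 pumps and 0 of 13248 genes, with 0 pumps at an unadjusted p under 0.05.

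Within a group, the levels of 2 pumps in the same animals were compared by Pearson's r on log2 CPM with permutation tests of 100000 resamples, over 45 pairs in each group and 90 relations in all. Adjusted over these, 6 passed, 2 in vehicle and 4 in zileuton livers. The sterol transporter's subunits were closest. Abcg5 and Abcg8 had r = 0.874 and rho = 0.818 over 41 vehicle animals and r = 0.777 and rho = 0.772 over 49 zileuton animals, with a permutation p of 1e-05 each, the smallest the resampling can give (adjusted p = 0.00045). Without the 2 animals farthest from the median of Abcg5, r was 0.847 and 0.739, and with the run removed 0.894 and 0.762. Within the 3 runs that held at least 6 vehicle animals r ran from 0.276 to 0.984, and within the 5 such runs of zileuton animals from 0.763 to 0.881. The 82 exon bases that these genes share could hold reads of either. Of the estimated counts of Abcg5 100% were whole, and of those of Abcg8 22.2%. The part of shared reads in r was not tested. Vehicle replicates 15 and 22 were the highest 2 vehicle animals for both genes and replicates 24 and 16 the lowest 2.

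The other relations were weaker. Abcc3 and Abcc4, the overflow pumps, had r = 0.505 in vehicle livers (permutation test, adjusted p = 0.0133), with rho = 0.367 (adjusted p = 0.107), and r = 0.456 in zileuton livers (permutation test, adjusted p = 0.0148), with rho = 0.542. Within runs r ran from −0.872 to 0.571 in vehicle and from −0.238 to 0.467 in zileuton livers. In vehicle livers r was 0.278 without the 2 farthest animals (adjusted p = 0.282, permutation test). It was 0.451 with the run removed (adjusted p = 0.134, permutation test), and the call was lost in both tests. Without replicate 37 r was 0.37, a value that was not tested. In zileuton livers r was 0.439 without the 2 farthest animals (adjusted p = 0.0396, permutation test) and 0.086 with the run removed (adjusted p = 0.815, permutation test), where the call is lost. In zileuton livers Abcb4 was related to Abcg5 (r = 0.527, permutation test, adjusted p = 0.0036), with rho = 0.478 and r = 0.469 with the run removed, and to Abcg8 (r = 0.413, permutation test, adjusted p = 0.0487), with rho = 0.407 and r = 0.391. The first passed with the run removed and without the 2 farthest animals, and the second in neither (adjusted p = 0.124 and 0.115, permutation tests). Within runs these ran from 0.305 to 0.872 and from 0.198 to 0.562. Abcb4 and Abcb1a, which lie near each other on chromosome 5, had r = −0.167 (rho = −0.0815) in vehicle and −0.0878 (rho = −0.053) in zileuton livers, and neither passed.

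**Figure D5:**
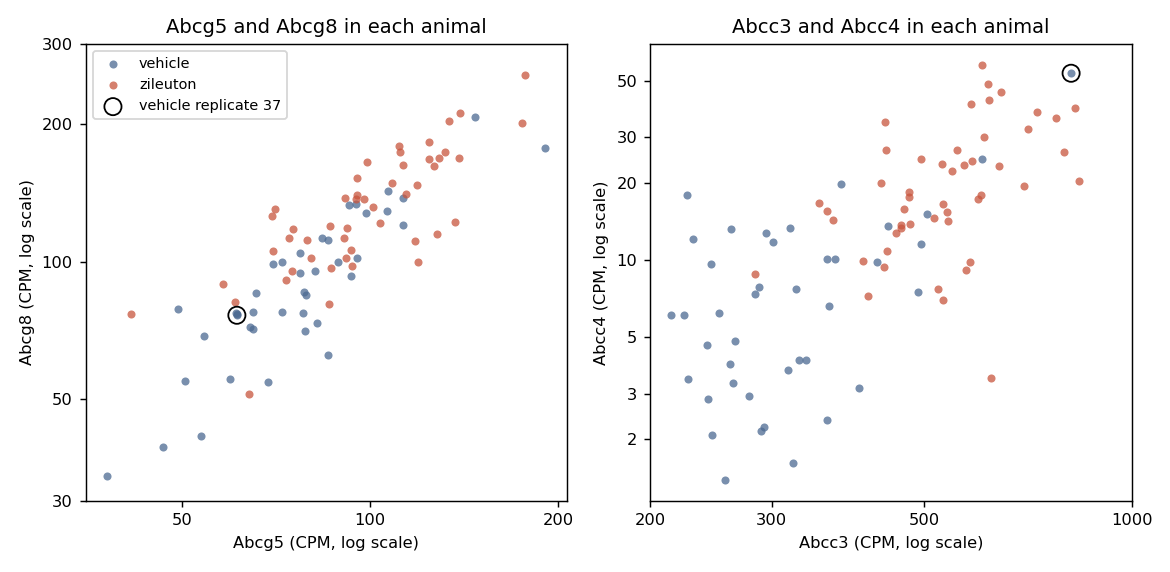
CPM of Abcg8 against Abcg5 and of Abcc4 against Abcc3 (log axes) in each animal, with vehicle replicate 37 circled. Abcg5 and Abcg8 rise together in both groups (r = 0.874 and 0.777), and the circled vehicle animal lies among the zileuton animals for Abcc3 and Abcc4 and among the vehicle animals for Abcg5 and Abcg8.

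The pumps were also set against scores of gene lists, each the mean of scaled log2 CPM, in 120 relations over both groups, of which 23 passed adjustment (10 in vehicle and 13 in zileuton livers). For each list and group the pump with the largest r that passed is given here, with Benjamini-Hochberg adjusted p from permutation tests and with r within the runs of at least 6 animals. In vehicle livers Abcc4 went with the NRF2 targets at r = 0.709 and rho = 0.663 (permutation test, adjusted p = 0.00024), with 0.746 once the run was removed, 0.626 without the 2 animals farthest in the score and 0.504 to 0.845 within runs. Abcc3 went with the PPARalpha targets at r = 0.693 and rho = 0.664 (permutation test, adjusted p = 0.00024), with 0.745, 0.559 and 0.509 to 0.934 in the same order. Abcc3 also went with the CAR and PXR targets at r = 0.673 and rho = 0.525 (permutation test, adjusted p = 0.000514), with 0.645, 0.441 and 0.13 to 0.718. These 3 relations held with the run removed and without the farthest animals. Abcg5 went with the LXR targets at r = 0.496 and rho = 0.449 (permutation test, adjusted p = 0.0078), with 0.476, 0.428 and 0.158 to 0.864. Abcb4 went inversely with the cholangiocyte markers at r = −0.409 and rho = −0.354 (permutation test, adjusted p = 0.0427, and 0.1 for rho), with −0.371, −0.291 and −0.972 to −0.135. With the run removed neither of these last 2 passed (adjusted p = 0.0829 and 0.199, permutation tests), and the second did not pass without the farthest animals (adjusted p = 0.253, permutation test). No pump passed with the clock score in vehicle livers.

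In zileuton livers Abcg2 led both the NRF2 and the PPARalpha relations. It went with the NRF2 targets at r = 0.692 and rho = 0.672 (permutation test, adjusted p = 0.00024), with 0.390 once the run was removed, 0.644 without the 2 farthest animals and 0.0909 to 0.912 within runs. With the PPARalpha targets it had r = 0.640 and rho = 0.628 (permutation test, adjusted p = 0.00024), with 0.403, 0.605 and −0.707 to 0.711. Abcc4 went with the CAR and PXR targets at r = 0.576 and rho = 0.614 (permutation test, adjusted p = 0.0004), with 0.289, 0.571 and −0.177 to 0.843. None of these 3 passed with the run removed. Abcg8 went with the clock score at r = 0.537 and rho = 0.547 (permutation test, adjusted p = 0.0008), with 0.564, 0.598 and −0.0955 to 0.876, and it passed with the run removed (adjusted p = 0.0072). No pump passed with the LXR targets or the cholangiocyte markers in zileuton livers. Recomputed with the run removed, 6 of the 23 relations passed, 4 in vehicle and 2 in zileuton livers, and 23 of 23 kept their sign.

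By likeness over all 90 animals after removal of the group means, among 11856 other genes, each pump had its own neighbours. Abcb11 was most like Dhrs9, a retinol dehydrogenase (r = 0.671), and Gldc of the glycine cleavage system (r = 0.658), and Abcb4 most like Cpt1a, which carries fatty acids into mitochondria (r = 0.601), and Mmd (r = 0.596). Abcc2 was most like Gm10768 (r = 0.698) and Fam126b (r = 0.633). Abcc3 was most like the drug-metabolizing genes Cyp2c29 (r = 0.678) and Ugt1a1 (r = 0.631), Abcc4 most like Entpd5 and the fatty aldehyde dehydrogenase Aldh3a2 (r = 0.677 each), and Abcg2 most like the peroxisomal genes Lonp2 (r = 0.727) and Pex11a (r = 0.658). Abcg5 and Abcg8 were each other's closest gene (r = 0.826), followed by Epor, the erythropoietin receptor (r = 0.514), and Tox (r = 0.632). Abcc6 had the weakest neighbours, Dhdh (r = 0.520) and Proz (r = 0.469), and Abcb1a lay near Tgfbr2 (r = 0.559) and Papss2 (r = 0.539). These values describe the same libraries and carry no test.

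Of the 16 regulators listed for these genes, 1 was called higher, 2 lower and 13 neither, against 14.4% higher and 14.8% lower over all genes tested. Nr1i2, the gene of PXR, was higher (log2 fold change 0.26 ± 0.06, SE, adjusted p = 0.000238), while a lower level was called for the hepatocyte factor Foxa2 (−0.28 ± 0.07, SE, adjusted p = 0.00188). Nr1h4, the gene of FXR, was at 0.03 and its target Nr0b2 at −0.31 (adjusted p = 0.0626). Nr1i3, the gene of CAR, was at 0.14, Nfe2l2, the gene of NRF2, at −0.02, and its inhibitor Keap1 at 0.06. The LXR genes Nr1h3 and Nr1h2 were at −0.06 and −0.01, their partner Rxra at 0.09, Ppara at 0.18 and Ahr at 0.11. Hnf4a was at −0.00488, Nr5a2 at 0.10 and Onecut1 at 0.30, none of them called.

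Genes known as targets of these regulators were listed beside them. Of 17 tested CAR and PXR targets 14 were called higher and 0 lower, with a median log2 fold change of 0.75; Cyp2c55 was at 2.81, Cyp2c29 at 1.72 and Cyp2b10 at 1.42, all 3 of them drug-metabolizing cytochromes. Of 22 NRF2 targets 12 were higher and 1 lower (median 0.31), with Gstm3 at 1.85, Gsta1 at 1.53 and Gstm1 at 1.09 among glutathione transferases, and Osgin1 at −0.96. Of 19 PPARalpha targets 14 were higher and 1 lower (median 0.55), with Cyp4a31 at 1.91, Cyp4a14 at 1.84 and Vnn1 at 1.74, and Pdk4 at −0.997. Of 8 LXR targets 2 were higher, Pltp at 0.71 and Smpdl3a at 0.21, and Srebf1 was lower at −0.32 (median over the list 0.09). The corresponding median over all genes was −0.01, with 14.4% called higher and 14.8% lower, so that the calls among the 8 LXR targets are near the background.

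Among 31 tested members of the ABC family outside the 10 pumps, 6 were called higher and 2 lower, against background shares of 14.4% and 14.8%, with a median log2 fold change of 0.06. The largest rises were those of Abcb9 (0.39), the peroxisomal fatty acid transporter Abcd3 (0.36) and Abca8a (0.34), and the falls those of Abca2 (−0.40) and Abca7 (−0.20). Of 15 uptake and bile secretion partners 4 were higher and 3 lower. The water and glycerol channel Aqp9 (0.35), the anion exchanger Slc4a2 (0.33) and the copper pump Atp7b (0.29) rose, and the organic anion transporter Slc22a7 (−1.68) and the flippase subunit Tmem30a (−0.13) fell. Of 20 genes of the canalicular membrane and its traffic 4 were higher and 5 lower (median −0.06). The tight junction genes Cldn1 (−0.97) and Cgn (−0.34) and the canalicular glycoprotein Ceacam1 (−0.25) fell, and the scaffold Slc9a3r1 (0.18), the peptidase Anpep (0.18) and Vipas39 (0.09) rose.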

How the data were processed

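Per the labels, RNA from 25 mg of liver was read on an Illumina HiSeq instrument with 1 library per animal, for 41 vehicle and 49 zileuton animals. The deposited raw table holds estimated counts (expected counts) per gene, of which 77.2% are whole to within 1e-06. The authors' second table holds a signal per gene, the rounded counts of a library divided by 1 size factor, checked to a relative deviation of 5e-06. Tools and build in the submitters' processing notes are STAR, Partek, DESeq2 and mm10, with no versions; for the counter, its annotation and strandedness, the sources used here give nothing. Animals were grouped by the exposure label. Estimated counts were rounded to whole numbers and tested with the edgeR 4.0.16 quasi-likelihood F test (TMM, filterByExpr, 13248 genes, adjusted p under 0.05); SE is the log2 fold change over the square root of F. CPM are counts per 1000000 of the TMM-scaled library size. Log2 CPM for relations, scores and limma 3.58.1 have a prior count of 2. At these totals the spread between animals (biological coefficient of variation 32.1%) sets the precision; no library was a copy of another, at a chi-square per gene of 45.3 or more for any pair. Alternatives used DESeq2 1.42.0, sva 3.50.0 with 23 surrogate variables, limma, other scalings, filters and covariates, and left out animals and runs. The script was tested on simulated data. Members and lists were chosen with earlier results of these data known. Named genes were all pumps, the regulators except 1 that is not reported here, from each other list called genes with a mean CPM of at least 1, up to 3 rises and 3 falls, and the 2 genes most alike; clock genes were given by counts. Listed genes Abcc8, Slc51a, Ces6 and Trbc2 were not analysed here.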

Additional observations from a re-analysis of the deposited data

Results flagged for a closer look

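Among 40 sets of values, each 1 pump in a coat colour group of 6 or 9 animals, 5 held an animal far from the others of its set; chance flags about 1 in 20 such sets. Of these 5, 3 were the same animal, vehicle replicate 37 with a black coat: Abcc2 at 424 CPM against 192 CPM for the nearest of 6 animals, Abcc3 at 817 CPM against 364 CPM and Abcc4 at 53.4 CPM against 17.9 CPM. Vehicle replicate 22, also black, had Abcg5 at 191 CPM against 93.3 CPM, and vehicle replicate 26, white, had Abcc3 at 489 CPM against 329 CPM.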

How the results depend on the processing

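The counts of 6 pumps higher and 1 lower were the same under 24 of 26 alternatives of scaling, filter, tool, covariate or libraries and in 90 of 90 fits that left out 1 animal. In those 90 fits 3754 to 4082 genes were called, with 6 to 6 pumps higher and 1 to 1 lower, and the log2 fold change of Abcc4 ran from 1.22 to 1.46. The exceptions were the clock score and the position within the run as covariates: each left 1 pump higher and 0 lower, with 384 and 217 genes called, against 3878; the cause was not tested. Directions turned for Abcg5 with the clock score (−0.0339), for Abcb1a with the clock score (−0.1366), with position (−0.1315) and with surrogate variables (−0.0724), and for Abcb4 with surrogate variables (−0.0162). Without vehicle replicates 8, 9, 15 and 37 together, chosen after seeing the data, Abcc4 was at 1.46 and Abcb11 at −0.37. With the run of animal numbers removed, 6 of 23 relations with list scores passed, and 5 relations among pumps passed, of which 3 were among the 6 that passed in the main test. The others were Abcc4 with Abcb1a in vehicle livers (r = 0.563) and Abcb4 with Abcc3 in zileuton livers (r = 0.538). By permutation test the adjusted p of each was 0.0128 with the run removed and 0.054 before. The cause of these changes was not tested. The within-run differences, the relations with position and the coat, coefficient of variation and pair values without vehicle replicate 37 were also chosen after seeing the data. No paired analysis was possible because replicate numbers were given in accession order and pair no animals. Depth limits Abcc4 and Abcb1a most, with lowest estimated counts of 29 and 98.4 in a library.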
